A study of Homo sapiens with 6 samples.

Results

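Tubulins are the building blocks of microtubules. An alpha tubulin and a beta tubulin pair into a dimer, dimers stack into the microtubule wall, and gamma tubulin, within the gamma-tubulin ring complex, provides the template from which new microtubules grow, including those of the mitotic spindle. Vertebrates carry several alpha and beta genes, called isotypes, whose products differ mostly in their C-terminal tails and whose use differs between tissues. The tubulin genes described here are 4 alpha isotypes (TUBA1A, TUBA1B, TUBA1C and TUBA4A), 5 beta isotypes (TUBB, TUBB2A, TUBB3, TUBB4B and TUBB6) and the gamma tubulin gene TUBG1. They were taken by symbol, 10 rows of the 41471 in a first count table and 10 of the 34157 in a second, and all 10 passed the expression filter, a mean of 1 CPM or more, in both.

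All libraries were made from mRNA of MDA-MB-231, a human triple-negative breast cancer cell line of mesenchymal character. In the knockdown experiment, cells stably carried a lentiviral scramble shRNA, CDK16-sh1 or CDK16-sh2, the latter 2 being hairpins against the atypical cyclin-dependent kinase CDK16. In the Reb experiment, cells received the vehicle DMSO or rebastinib (Reb), a kinase inhibitor proposed to act on CDK16, at 1 μM or 5 μM for 48 h. Each condition had 1 library, both treated libraries of an experiment share 1 control library, and no value below has a replicate check. CDK16 itself had 3223 counts with the scramble shRNA, 1360 with CDK16-sh1 and 846 with CDK16-sh2, and 4996, 4609 and 2797 counts under DMSO, 1 μM and 5 μM Reb. After the TMM scaling explained below, the log2 fold changes of CDK16 were −1.52 and −1.82 for the hairpins and −0.14 and 0.27 for the doses. Its direction at 5 μM flips with the scale, since its RPKM, which uses library totals, was 15.2 under DMSO and 11.4 at 5 μM. The study examined spindle formation after CDK16 knockdown, and the comparisons below ask how the mRNAs of the spindle's own subunits stood in such cells.

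Total counts ranged from 25838443 to 50303269 per library. The 5 μM Reb library stood apart: its 100 most abundant genes took 35.3% of the counts, against 24.3% and 24.4% in the other 2 libraries of the experiment, and mitochondrial transcripts took 16.4%, against 7.19% and 8.30%. In CDK16-sh2 mitochondrial transcripts took 16.2%, against 11.3% and 10.4%. The part of these differences in the results was not tested. Fold changes are log2 ratios of CPM, the count relative to the library's size, scaled by edgeR's TMM method with a prior count of 2. Scaling by library totals instead shifted the median of all genes by −0.68 at 5 μM and by −0.20 in CDK16-sh2. Intervals are 95% Clopper-Pearson intervals and cover counting error only. All 4 mesenchymal-like markers (VIM, CD44, AXL, MSN) were at 1 RPKM or more in each library, with summed levels of 804 to 1337 RPKM. Of 9 luminal and epithelial markers, 4 or 5 reached 1 RPKM in each library (summed 184 to 314 RPKM, mostly KRT8 and KRT18), and the hormone receptor genes ESR1 and PGR had at most 12 and 16 counts.

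Tubulin mRNAs are also subject to autoregulation. When free dimers accumulate, the factor TTC5 binds the first amino acids of nascent alpha and beta tubulin on the ribosome and, through SCAPER and the CCR4-NOT deadenylase, brings about decay of the mRNA being translated. The start of each coding sequence is therefore shown, read from GENCODE 29 transcripts on GRCh38, with the first 4 codons in capitals.
TUBA1A: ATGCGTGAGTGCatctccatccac
TUBA1B: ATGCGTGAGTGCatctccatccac
TUBA1C: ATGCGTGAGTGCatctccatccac
TUBA4A: ATGCGTGAATGCatctcagtccac
TUBB: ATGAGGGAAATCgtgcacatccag
TUBB2A: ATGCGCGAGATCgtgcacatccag
TUBB3: ATGAGGGAGATCgtgcacatccag
TUBB4B: ATGAGGGAAATCgtgcacttgcag
TUBB6: ATGAGGGAGATCgtgcacatccag
TUBG1: ATGCCGAGGGAAatcatcacccta
The 3 TUBA1 genes were identical over these 24 bases, as were TUBB3 and TUBB6, while the gamma tubulin gene opened differently from every alpha and beta gene shown. The last 60 coding bases, which encode the C-terminal tail, are shown with the stop codon in capitals for the 2 beta genes with the widest differences at 5 μM Reb and for TUBB2B, the nearest paralog of TUBB2A.
TUBB2A: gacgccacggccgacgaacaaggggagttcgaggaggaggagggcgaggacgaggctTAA
TUBB2B: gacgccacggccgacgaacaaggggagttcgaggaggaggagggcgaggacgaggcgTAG
TUBB6: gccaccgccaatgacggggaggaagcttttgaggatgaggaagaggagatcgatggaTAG
Over the whole coding sequence TUBB2A was 98.1% identical to TUBB2B and 86.2% identical to TUBB6. TUBA1A was 97.2% identical to TUBA1B and 95.9% to TUBA1C.

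Near-identical copies and overlapping genes limit how surely a count belongs to its gene. Of the 100-base windows of the transcript, 56.4% were found unchanged in another gene's transcript for TUBB2A, 37.2% for TUBA1B, 18.3% for TUBA1A, 15.0% for TUBG1, where the other gene was TUBG2, and 11.5% for TUBA1C, while TUBB6 shared none. For TUBB3 89.0% were shared, all of these with a gene on the same strand that overlaps it, RP11-566K11.2, whose row held 3187 counts in the scramble library against 3149 for TUBB3. Genes on the opposite strand also held many counts: RP11-386G11.10, over TUBA1B, held 82.6% of the TUBA1B count in the scramble library and 83.7% under DMSO, and XXbac-BPG252P9.9, over TUBB, held 41.4% and 50.7% of the TUBB count. RP11-161H23.5 over TUBA1C held 43.9% and 49.3%. TUBA1A and TUBA1C also overlap each other on opposite strands, with 2516 and 33340 counts in the scramble library and 5502 and 22962 under DMSO. The library kit keeps strand, but whether the counting used it, and how reads lying in both genes were assigned, is not given in the sources used here, so such pairs cannot be told apart. TUBB2A overlapped no annotated gene.

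The levels of the 10 genes, compared per gene length as RPKM, covered a wide range. In the scramble library TUBA1B stood at 564 RPKM, TUBB at 553, TUBB4B at 504 and TUBA1C at 279. TUBB6 followed at 123 RPKM and TUBG1 at 73.1. TUBB2A, TUBA1A, TUBB3 and TUBA4A lay lowest, at 33.7, 28.5, 27.5 and 25.5 RPKM. Over the 3 knockdown libraries the range of TUBB overlapped those of TUBA1B and TUBB4B, while TUBA1B lay above TUBB4B in range, TUBA1C lay below all of them with a range of its own, and the ranges of the 4 lowest genes overlapped each other. Under DMSO the order was TUBB (374 RPKM), TUBA1B (350), TUBB4B (171), TUBB6 (132), TUBA1C (98.6), TUBG1 (78.4), TUBA1A (32.0), TUBB2A (25.4), TUBB3 (13.5) and TUBA4A (11.9), and this order was the same at 1 μM. At 5 μM TUBB2A moved from rank 8 to rank 3 of the 10, with 116 RPKM, and TUBB6 from rank 4 to rank 8, with 15.6 RPKM. TUBB3 is widely used as a neuronal marker, but of the neuronal markers found by name in the tables (8 in the first, 7 in the second) 0 reached 1 RPKM in any library, and the same held for the ciliated cell markers (5 in the first, 4 in the second).

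**Figure D1:**
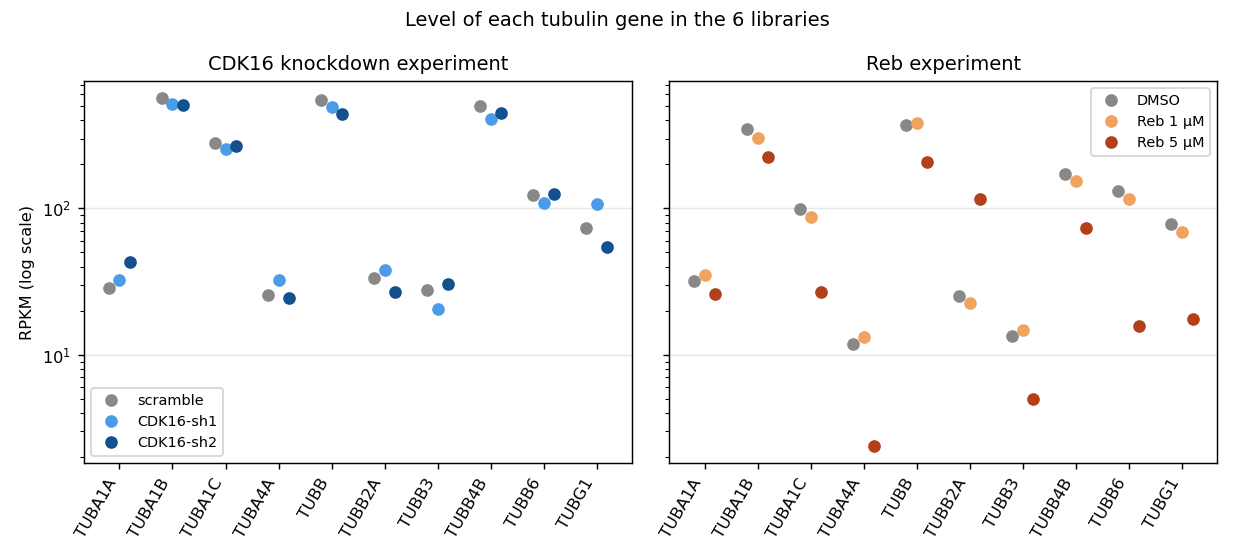
RPKM of each tubulin gene on a log axis, with the knockdown experiment on the left and the Reb experiment on the right, 1 point per library and no replicates. TUBA1B and TUBB are the highest or next to highest in most libraries, and at 5 μM TUBB2A lies above TUBB4B, at 116 against 73.6 RPKM.

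The 2 control libraries differed from each other in several tubulins. TUBB4B stood at 504 RPKM in the scramble library and 171 under DMSO, TUBA1C at 279 and 98.6, and TUBA4A at 25.5 and 11.9. TUBA1A, TUBB6 and TUBG1 were close, with log2 ratios of DMSO to scramble of 0.17, 0.09 and 0.10. The median log2 ratio of DMSO to scramble was −0.63 over the 10 genes and −0.12 over the 14414 genes tested in both experiments. The tables were normalized separately, and the stable shRNA lines and the vehicle-treated cells also differ in vector and handling, so the sources of this gap cannot be told apart.

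CDK16 knockdown left every tubulin gene within 2-fold of the scramble library. In CDK16-sh1, 0 of 10 were at least 2-fold lower and 0 at least 2-fold higher, beside 6.86% and 4.33% of all 15295 genes tested, and in CDK16-sh2 again 0 and 0, beside 7.62% and 2.20%. The median of the 10 log2 fold changes was −0.10 with CDK16-sh1 and 0.09 with CDK16-sh2, beside medians of −0.002 and 0.018 over all genes. On the TMM scale the hairpins gave the same sign for 3 genes and opposite signs for 7. These signs depended on the scale. Under library totals the CDK16-sh2 values of TUBA1B, TUBA1C and TUBB4B turned to −0.16, −0.07 and −0.16, the side of CDK16-sh1. TUBA4A turned to −0.07, away from CDK16-sh1. The share of all genes with opposite signs is not given here, so this count is not read as particular to tubulins.

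Among the alpha tubulins, TUBA1A (chr12:49184796-49189324 on GRCh38, as are all positions below), the isotype prominent in developing neurons, had 2516 counts with the scramble shRNA, 3557 with CDK16-sh1 and 4036 with CDK16-sh2. The CDK16-sh2 library was the highest and the scramble library the lowest. The log2 fold change was 0.22 (0.15 to 0.30) for CDK16-sh1 and 0.79 (0.72 to 0.86) for CDK16-sh2, the latter being the widest difference of the 10 genes in this experiment. TUBA1B (chr12:49127782-49131397), a ubiquitous isotype and the most abundant alpha tubulin here, had 52101, 58793 and 49721 counts, with log2 fold changes of −0.10 and 0.04. TUBA1C (chr12:49188736-49274603) had 33340, 37527 and 33892 counts, with −0.11 and 0.13. Both lay on opposite sides of 0 in the hairpins with TMM scaling, and under library totals their values in CDK16-sh2 turned to −0.16 and −0.07. TUBA4A (chr2:219249711-219278170), an alpha isotype whose gene encodes no C-terminal tyrosine, had 2684, 4228 and 2731 counts, with 0.38 (0.31 to 0.45) and 0.13 (0.05 to 0.21), the latter −0.07 under library totals.

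Among the beta tubulins, TUBB (chr6:30720201-30725426), the ubiquitous class I isotype, had 48026, 52718 and 41070 counts, and its log2 fold changes were −0.14 and −0.12. TUBB4B (chr9:137241213-137243707), a class IV isotype also used in cilia, had 27482, 27397 and 26102 counts, with −0.28 and 0.03, the latter −0.16 under library totals. TUBB3 (chr16:89921392-89938761), the class III isotype, had 3149, 2928 and 3699 counts. Its values of −0.38 (−0.46 to −0.31) and 0.34 (0.27 to 0.41) were the widest disagreement between the hairpins among the beta tubulins. TUBB6 (chr18:12307669-12344320), the class V isotype, had 13137, 14284 and 14211 counts, with −0.16 and 0.22. TUBB2A (chr6:3153669-3157526), a class II isotype, had 1503, 2079 and 1285 counts, with 0.19 (0.10 to 0.29) and −0.12 (−0.23 to −0.01), the former turning to −0.15 once a trend on GC content was removed.

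TUBG1 (chr17:42609676-42615234), the main gamma tubulin gene, had 4556, 8253 and 3591 counts. The log2 fold changes were 0.58 (0.53 to 0.63) and −0.24 (−0.30 to −0.17), so that the hairpins lay on opposite sides of the control. Its paralog TUBG2 split in the same way, with 449, 1177 and 335 counts and log2 fold changes of 1.11 and −0.31. When the hairpin libraries were pooled as 1 group against their control, the edgeR quasi-likelihood test called 0 of the 10 genes (Benjamini-Hochberg adjusted p = 1 for each) and 0% of all genes. DESeq2's Wald test also called none of the 10. Both tests took the hairpins as replicates, so a difference between the hairpins counted as spread. A change in the tubulins could therefore hardly be called, and its absence is not shown. CDK16 itself had an adjusted p-value of 0.804 in the edgeR test.

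**Figure D2:**
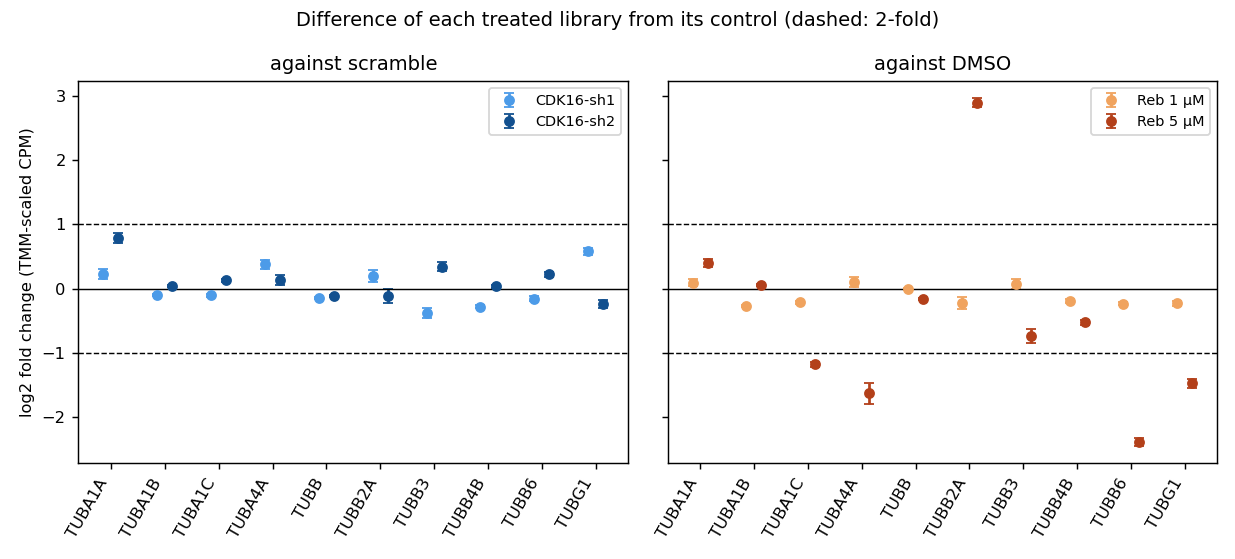
Log2 fold change of each tubulin gene against its own control, hairpins on the left and Reb doses on the right, with bars for the 95% counting interval and dashed lines at 2-fold. Under both hairpins and 1 μM Reb all points lie within the dashed lines, and at 5 μM TUBB2A lies above them and TUBA1C, TUBA4A, TUBB6 and TUBG1 below.

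At 1 μM Reb the tubulins stayed close to DMSO. Beside 1.92% of the 15655 genes tested that were at least 2-fold lower and 1.28% that were at least 2-fold higher, 0 and 0 of the 10 tubulins were. Their log2 fold changes ran from −0.26 for TUBA1B to 0.10 for TUBA4A, with a median of −0.21 beside 0.00 over all genes, and for TUBB and TUBB3 the counting interval included 0. TUBB, at −0.01, turned to 0.04 under library totals.

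At 5 μM Reb the isotypes parted. TUBA1C, TUBA4A, TUBB6 and TUBG1 were at least 2-fold lower than under DMSO, 4 of 10 beside 27.2% of all genes, and TUBB2A was at least 2-fold higher, 1 of 10 beside 23.6% of all genes. Against so wide a background, these counts are not read as particular to tubulins. The 10 values ran from −2.39 for TUBB6 to 2.89 for TUBB2A, around a median of −0.63. Over all genes the median was −0.07 and the interquartile range −1.10 to 0.94. This spread is not read as particular to tubulins either.

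TUBB2A had 2206 counts under DMSO, 1921 at 1 μM and 7576 at 5 μM. The library treated with 5 μM was the only high one, and the 1 μM library was the lowest. The log2 fold change was −0.22 (−0.31 to −0.13) at 1 μM and 2.89 (2.82 to 2.96) at 5 μM, a 7.40-fold higher value that only 2.82% of all genes exceeded. Its paralog TUBB2B had 1506, 1224 and 4697 counts, with −0.32 and 2.75, and the counts of both genes summed gave −0.26 and 2.83. Because the genes share much of their sequence, their separate values are uncertain, and the sum bears on the pair. TUBB2A remained above 2-fold under every scaling and filter tried, between 2.19 and 3.36.

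The counts assigned to both class II genes, which lie on chromosome 6, were higher at 5 μM, although their separate values are uncertain. The 250 bases before the start sites of both genes are therefore shown, from RefSeq on GRCh38.p14, minus strand, 5′ to 3′. Every CCAAT or TATAAA match on either strand is in capitals. The TUBB2A stretch is chr6:3157545-3157794 and the TUBB2B stretch chr6:3227654-3227903.
TUBB2A: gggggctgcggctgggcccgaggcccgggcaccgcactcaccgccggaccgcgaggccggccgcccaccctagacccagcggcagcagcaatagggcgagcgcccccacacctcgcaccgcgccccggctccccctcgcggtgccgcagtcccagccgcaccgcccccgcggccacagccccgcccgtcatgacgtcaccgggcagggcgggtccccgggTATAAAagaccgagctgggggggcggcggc
TUBB2B: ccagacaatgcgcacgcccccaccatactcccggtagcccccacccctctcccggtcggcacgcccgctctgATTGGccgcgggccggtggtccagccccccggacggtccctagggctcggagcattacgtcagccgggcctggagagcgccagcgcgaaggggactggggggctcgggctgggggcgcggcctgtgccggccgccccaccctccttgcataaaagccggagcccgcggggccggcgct
These stretches were 52.5% identical, against 98.1% for the coding sequences. TUBB2A held 1 TATAAA match, 5 GGGCGG matches and 0 CCAAT matches, and TUBB2B held 0, 1 and 1. Of 35116 promoter stretches of the same length, 10.7% held TATAAA, 42.6% GGGCGG and 32.0% CCAAT on either strand. A match is a description of the letters only.

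TUBB6 showed the widest difference in the other direction. It had 27286 counts under DMSO, 23532 at 1 μM and 2422 at 5 μM, and only the 5 μM library was far below the others. The log2 fold change was −0.24 (−0.26 to −0.21) at 1 μM and −2.39 (−2.45 to −2.33) at 5 μM, a 5.22-fold lower value, and 6.50% of all genes lay lower still. AFG3L2, which overlaps TUBB6 on the opposite strand, had 9546, 11747 and 6736 counts, so its 5 μM count exceeded that of TUBB6.

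TUBA4A had 2441 counts under DMSO, 2668 at 1 μM and 367 at 5 μM, with log2 fold changes of 0.10 (0.03 to 0.19) and −1.62 (−1.79 to −1.47). TUBG1 had 9509, 8233 and 1586 counts, with −0.23 (−0.27 to −0.19) and −1.48 (−1.55 to −1.40). FAM134C, which overlaps TUBG1 on the opposite strand, had 4006, 3245 and 673 counts, low in the same library. TUBG2, the other gamma tubulin gene, had 2142, 1975 and 806 counts and lay at −0.30 at 5 μM. TUBA1C had 22962, 20121 and 4701 counts, with −0.21 (−0.24 to −0.19) and −1.18 (−1.23 to −1.14). In all of these genes the 5 μM library held the lowest count.

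The other 5 genes were within 2-fold of DMSO at 5 μM on this scale, among them TUBA1B and TUBB, which had the most counts of their class. TUBA1B had 62944, 53272 and 30296 counts, with −0.26 and 0.05, the latter turning to −0.64 under library totals. TUBA1A had 5502, 5946 and 3376 counts, with 0.09 and 0.40, the latter turning to −0.29 under library totals. TUBB had 63207, 63656 and 26173 counts, with −0.01 and −0.16, the latter turning to 0.06 once a trend on GC content was removed. TUBB4B had 18151, 16075 and 5853 counts, with −0.20 and −0.52, and TUBB3 had 3004, 3208 and 834 counts, with 0.07 and −0.74. Both were past 2-fold lower under library totals, at −1.22 and −1.43. Once a trend on GC content was removed, TUBB4B lay at −0.05 and TUBB3 at −0.26. Genes with the same bases at the coding start differed in value at 5 μM. The TUBA1 genes lay at 0.40, 0.05 and −1.18, and TUBB3 and TUBB6 at −0.74 and −2.39. These groups are by bases, not by the amino acids that TTC5 binds. No test of that difference was made, and any part of autoregulation was not tested.

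**Figure D3:**
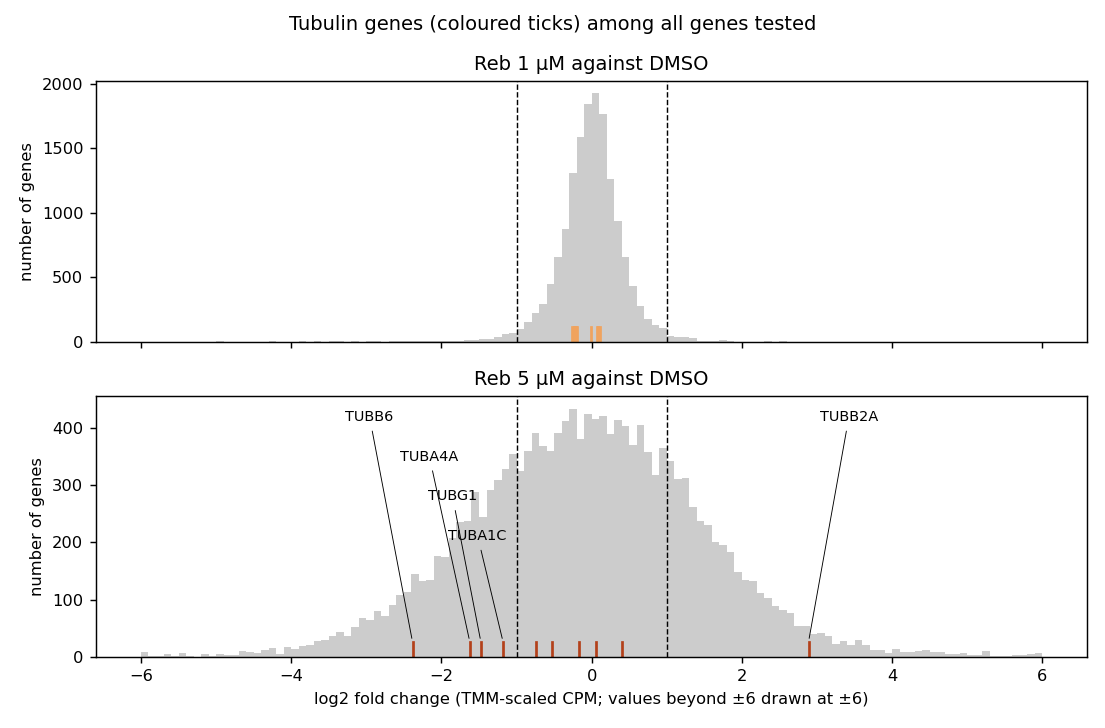
Histograms of the log2 fold change of all genes tested at 1 μM (top) and 5 μM Reb (bottom), with the 10 tubulin genes as coloured ticks and dashed lines at 2-fold. The distribution of all genes is wider at 5 μM, where 27.2% lie past 2-fold lower and 23.6% past 2-fold higher, and the tubulins spread across it.

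**Figure D4:**
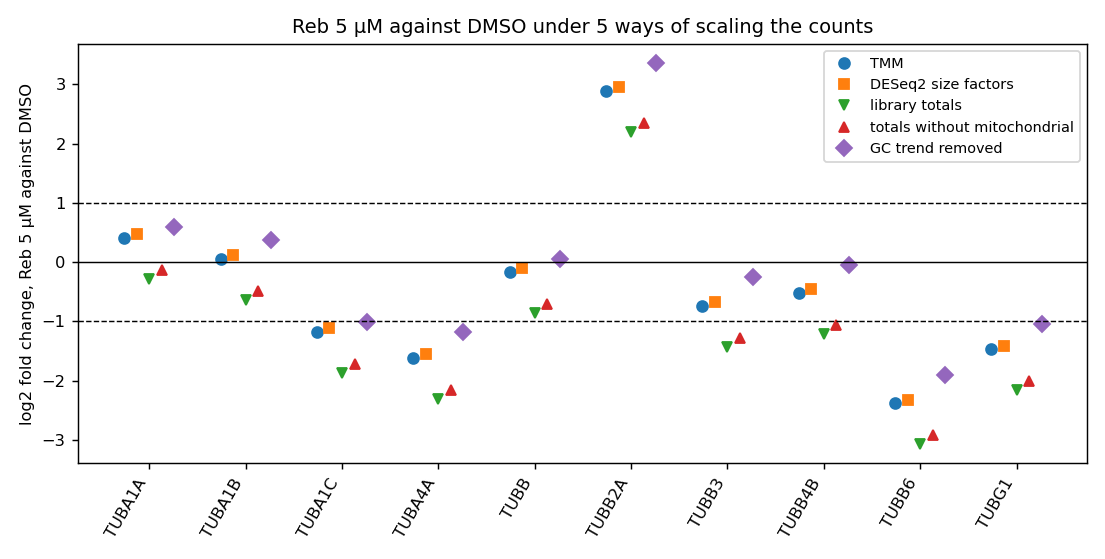
Log2 fold change at 5 μM Reb against DMSO for each tubulin gene under 5 ways of scaling or correcting the counts, with dashed lines at 2-fold. TUBB2A stays above 2-fold and TUBB6 below in each, while TUBA1A and TUBA1B lie above 0 under TMM and below 0 under library totals.

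With both doses as 1 group against DMSO, the edgeR quasi-likelihood test called none of the 10 tubulins, beside 0.0767% of all genes. DESeq2's Wald test gave no call among them either, and few among all genes. Both tests took 1 μM and 5 μM as replicates, so a difference between the doses counted as spread. A change at 5 μM only could therefore hardly be called, and its absence is not shown. With dose as a linear term, which takes the departure of the 3 libraries from a line in log2(dose + 1) as the spread, the edgeR test called 3 of 10, beside 24.5% of all genes. These were TUBB2A (slope 1.17, adjusted p = 0.000213), TUBB6 (slope −0.97, adjusted p = 0.0113) and TUBA4A (slope −0.68, adjusted p = 0.0459), all by edgeR with Benjamini-Hochberg adjustment. TUBG1, with an edgeR adjusted p = 0.0752, and TUBA1C, with 0.175, missed the threshold. Each slope rests on 3 libraries and 1 residual degree of freedom, and the 1 μM values near DMSO leave it mostly to the 5 μM library.

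Shares of each isotype within its class do not depend on how libraries are scaled. Each share is of the summed counts of the alpha or beta genes described here, so TUBB2B is left out. TUBB2A took 1.94% (1.86 to 2.02) of the beta tubulin counts under DMSO, 1.77% (1.70 to 1.85) at 1 μM and 17.7% (17.3 to 18.0) at 5 μM. TUBB6 took 23.97% (23.7 to 24.2), 21.7% (21.5 to 22.0) and 5.65% (5.43 to 5.87). TUBB, with the most counts of the beta isotypes in every library, took 55.5%, 58.7% and 61.1%, and TUBB4B took 15.9%, 14.8% and 13.7%. TUBB2A thus overtook TUBB6 and TUBB4B in counts at 5 μM. The higher TUBB share at 5 μM depended on the measure. With all other tubulin loci added, TUBB took 54.6% under DMSO and 54.8% at 5 μM. Per gene length it took 52.3% and 49.5%. Per gene length, TUBB2A took 27.9% of the beta tubulin RPKM at 5 μM, against 3.55% under DMSO.

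Within the alpha tubulins, TUBA1B took 67.1% (66.8 to 67.4) under DMSO, 65.0% (64.6 to 65.3) at 1 μM and 78.2% (77.8 to 78.6) at 5 μM. TUBA1C took 24.5% (24.2 to 24.7), 24.5% (24.2 to 24.8) and 12.1% (11.8 to 12.5), and TUBA4A 2.60%, 3.25% and 0.947%. TUBA1A took 5.86%, 7.25% and 8.72%. In the knockdown experiment the shares moved less. TUBA1B took 57.5%, 56.5% and 55.0% of the alpha counts in the scramble, CDK16-sh1 and CDK16-sh2 libraries, TUBA1A 2.78%, 3.42% and 4.47%, and TUBB 51.5%, 53.0% and 47.6% of the beta counts. The widest difference of a share between a treated library and its control was 18.31 percentage points, for TUBB6 at 5 μM. The gap between the controls was wider than any hairpin difference for TUBA1C, at 36.8% in the scramble library and 24.5% under DMSO. The same held for TUBB4B (29.5% and 15.9%), TUBB6 (14.1% and 23.97%), TUBA1B (57.5% and 67.1%), TUBA1A (2.78% and 5.86%) and, narrowly, TUBB (51.5% and 55.5%). It did not hold for TUBA4A, TUBB2A and TUBB3.

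**Figure D5:**
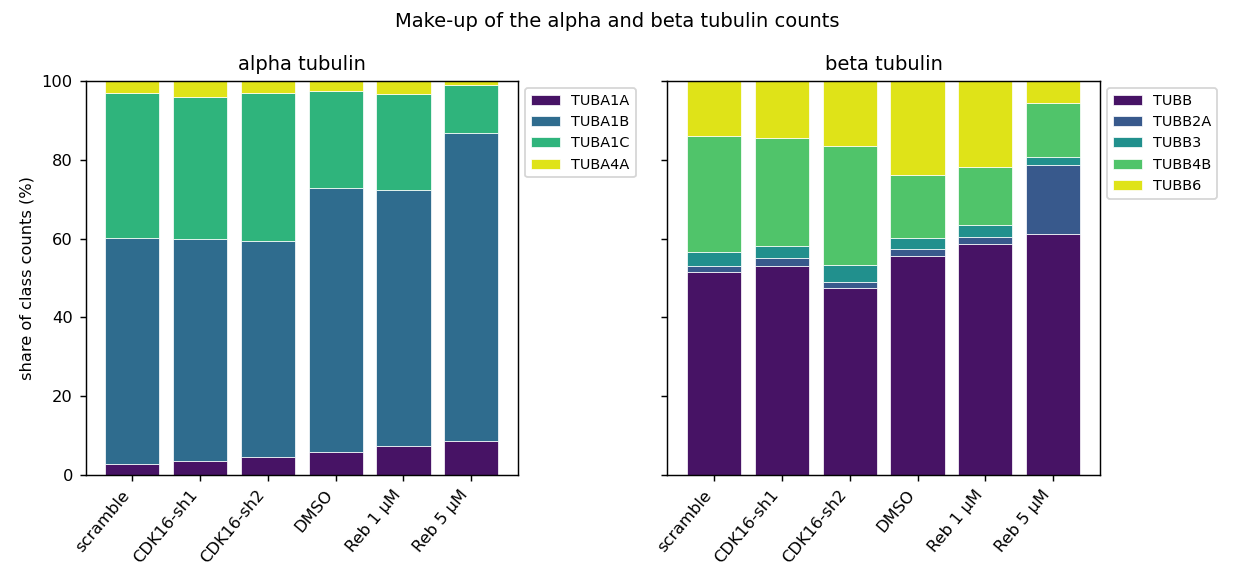
Stacked bars of each isotype's share (%) of the summed counts of the alpha (left) and beta (right) genes described here, in the 6 libraries. At 5 μM Reb the TUBB2A segment is 17.7% and the TUBB6 segment 5.65%, against 1.94% and 23.97% under DMSO.

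Summed over the genes described here, alpha tubulin counts were 0.187% of the library under DMSO, 0.166% at 1 μM and 0.103% at 5 μM. Beta tubulin counts were 0.226%, 0.220% and 0.114%. On the TMM scale the class sums lay at −0.17 for alpha and −0.30 for beta at 5 μM, and under library totals at −0.86 and −0.99. In the knockdown experiment the alpha sum lay at −0.08 and 0.10 and the beta sum at −0.19 and −0.01, with the alpha value in CDK16-sh2 turning to −0.09 under library totals. These values are relative to the rest of each library and give no absolute amount of tubulin mRNA. In bulk samples a difference in some cells and one in all cells cannot be told apart.

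Genes that work with tubulin were summarised from written lists. Of 19 genes of the gamma-tubulin ring complex and its recruiters, 7 were at least 2-fold lower and 5 at least 2-fold higher at 5 μM, beside 27.2% and 23.6% of all genes, with a median of −0.56. HAUS5, an augmin subunit, had 1434, 1085 and 139 counts (−0.43 and −2.25), and HAUS3, another augmin subunit, had 1035, 1318 and 1245 (0.33 and 1.37). HAUS2 lay at 0.37 and 0.76. The 5 higher genes, named after their values were seen apart from HAUS3, were TUBGCP3, MZT1, MZT2B, NEDD1 and HAUS3. In the knockdown experiment TUBGCP3 and NEDD1 were at least 2-fold lower with CDK16-sh1 and NEDD1 with CDK16-sh2, and 0 of the 19 were higher, beside 6.86% and 7.62% of all genes lower and 4.33% and 2.20% higher. NEDD1, which brings the ring complex to the centrosome and spindle, had 533, 266 and 189 counts (−1.27 and −1.38). HAUS7 (0.85 and 0.74) and HAUS6 (−0.53 and −0.55) followed.

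New tubulin is folded by prefoldin and the CCT chaperonin and then paired by the cofactors TBCA to TBCE. Of 15 CCT and prefoldin genes, 6 were at least 2-fold higher and 1 lower at 5 μM, beside 23.6% and 27.2% of all genes, with a median of 0.77, and 0 passed 2-fold under 1 μM or either hairpin. VBP1, a prefoldin subunit, had 1174, 1365 and 3179 counts (0.19 and 2.54), PFDN1 4194, 4891 and 4287 (0.20 and 1.14), and PFDN6 5347, 4410 and 622 (−0.30 and −1.99). Of the 7 folding cofactor genes, 2 were at least 2-fold higher and 1 lower at 5 μM, beside the same 23.6% and 27.2%, with a median of 0.70: TBCA and TBCC higher and TBCEL lower, TBCC and TBCEL being named after their values were seen. TBCA, which holds folded beta tubulin, had 10755, 12045 and 10152 counts (0.14 and 1.03), TBCD lay at 0.13 and 0.56, and TBCE at 0.07 and 0.06. Under the hairpins PFDN2 lay at 0.46 and 0.96, PFDN5 at 0.83 and 0.60, and PFDN1 at 0.47 and 0.60. Of the cofactors, ARL2, a GTPase of the cofactor complex, lay at 0.72 and 0.58, TBCB at 0.25 and 0.18, and TBCEL at −0.86 and −0.47.

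Of 12 genes of tubulin autoregulation, 3 were at least 2-fold lower and 2 higher at 5 μM, beside 27.2% and 23.6% of all genes, with a median of −0.50. SCAPER, CNOT3 and CNOT10 were the lower and CNOT6L and CNOT8 the higher genes, all but CNOT3 named after their values were seen. TTC5, the factor that reads the nascent tubulin, had 1130, 1017 and 371 counts (−0.18 and −0.50). CNOT3, a CCR4-NOT subunit, had 9587, 8022 and 1071 counts (−0.28 and −2.05), and CNOT9, another subunit, lay at −0.17 and −0.75. Under the hairpins SCAPER had 285, 175 and 167 counts (−0.97 and −0.66), CNOT3 lay at 0.50 and 0.36, and CNOT1, the scaffold of the deadenylase, at −0.26 and −0.28. Of the 12, only CNOT6, named after its values were seen, was past 2-fold lower, with CDK16-sh1, beside 6.86% of all genes. Of 17 tubulin modifying enzymes tested, 7 were at least 2-fold lower and 2 higher at 5 μM, beside 27.2% and 23.6% of all genes, with a median of −0.71. HDAC6, which deacetylates alpha tubulin, had 3673, 3037 and 615 counts (−0.30 and −1.47), and TTLL3, a tubulin glycylase, 876, 651 and 93 (−0.45 and −2.11), while TTLL7, a glutamylase, lay at 0.48 and 0.49. The 2 higher genes were TTLL11 and AGBL3, named after their values were seen. Under the hairpins AGBL5 lay at 0.61 and 0.29, TTLL12 at 0.34 and 0.22, and KIAA0895L at 0.17 and 0.52. TTLL7 was past 2-fold lower with each hairpin, 1 of 17 beside 6.86% and 7.62% of all genes, at a mean below 5 CPM. Of 31 microtubule-associated and stathmin genes tested in the Reb experiment, 5 (among them MAP7D1, MAP7D3, CLIP2 and EML1) were lower and 4 (MAPRE1, MAPRE2, FIGN and CAMSAP1) higher past 2-fold at 5 μM, beside 27.2% and 23.6% of all genes. CLIP2, a plus-end protein, had 2861, 2222 and 136 counts (−0.39 and −3.28). FIGN, a microtubule-severing enzyme, had 225, 356 and 297 counts and was past 2-fold higher at 5 μM. Of 28 tested in the knockdown experiment, MAP1B, MAP2, CLASP2 and CLIP2 were past 2-fold lower with CDK16-sh1, and MAP7D3, CLIP1, SPAST and EML1 with CDK16-sh2, where MAPRE3 was past 2-fold higher, beside 6.86% and 7.62% of all genes lower and, with CDK16-sh2, 2.20% higher. In this list the genes other than CLIP2, FIGN, SPAST, CLIP1 and MAP1S were named after their values were seen. SPAST, the severing enzyme spastin, had 273, 198 and 37 counts (−0.73 and −2.72), and CLIP1, a plus-end protein, 3246, 2020 and 1438 (−0.96 and −1.07). MAP1S lay at 0.77 and 0.86. At 1 μM Reb 0 genes of these lists were past 2-fold in either direction.

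The genes most like TUBA1B and TUBB over the 4 log2 fold changes, by Euclidean distance over 10554 genes whose mean was 5 CPM or more, included the genes annotated over them on the opposite strand. For TUBA1B the nearest were RP11-386G11.10 (distance 0.073), GPAT2 (0.087) and MARCKS (0.11). For TUBB they were TRIM44 (0.076), XXbac-BPG252P9.9 (0.084) and LIMD1 (0.13). The 4 values share 2 control libraries.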

How the data were processed

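RNA-seq libraries of MDA-MB-231 cells were analysed, 1 per condition. The authors mapped reads to GRCh38 and deposited whole-number read counts per gene symbol, without normalization, and RPKM values, which are these counts divided by gene length and library total. The submitters' processing notes name Trimmomatic, featureCounts and Subread 1.5.1, while aligner and annotation are not given in the sources used here. Counts as deposited were scaled by TMM in edgeR 4.0.16 (R 4.3.3), with a prior count of 2, where the mean reached 1 CPM (15295 genes for the hairpins and 15655 for Reb). With 1 library per condition, the fold threshold of 2 is a description. The edgeR quasi-likelihood test took both treated libraries as 1 group, with thresholds of 0.05 on the Benjamini-Hochberg adjusted p-value and of 2 on the fold. Its p-values measure only the spread between these libraries. Coordinates in the tables were checked against GENCODE 29. Sequences were read from GENCODE 29 and RefSeq, and all 10 genes matched a RefSeq promoter. No strandedness setting was stated.

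The genes and lists were chosen with earlier results of these data known. Beside the members, the text names CDK16, the other tubulin genes expressed here and, of each list, where the mean reached 5 CPM, the 3 genes with the largest change in the same direction in both treated libraries of an experiment, by the smaller change, and any past 2-fold in both, except for 1 gene that is not reported here. The overlapping genes were described after their values were seen. Alternatives were DESeq2 1.42.0 size factors and its Wald test, library totals, totals without mitochondrial transcripts, RPKM with 0.1 added, a prior count of 0.5, other filters, GC and length trends removed, a 1.5-fold threshold and, for Reb, dose as a linear term. Intervals are Clopper-Pearson intervals computed with scipy 1.17.1.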

Additional observations from a re-analysis of the deposited data

How the results depend on the processing

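No paired analysis was possible because each condition had 1 library, and for the same reason no library could be left out of a comparison. Of the genes past 2-fold at 5 μM, TUBB2A ranged from 2.19 to 3.36, TUBB6 from −3.08 to −1.90, TUBA4A from −2.31 to −1.19 and TUBG1 from −2.17 to −1.04. TUBA1C stayed past 2-fold except when its counts were summed with TUBA1A and TUBA1B (−0.14), a sum chosen after seeing the data. Under library totals, with or without mitochondrial transcripts, and under RPKM, 6 tubulins were past 2-fold lower at 5 μM instead of 4. The share of all genes past 2-fold on those scales is not given here. Library totals shifted the median of all genes at 5 μM by −0.68, so the 6 are not read as particular to tubulins. The medians of the 10 genes moved with the scaling. In CDK16-sh1 (−0.10) the median was −0.13 under library totals and under RPKM, −0.15 without mitochondrial transcripts, −0.12 with no filter, −0.24 with the GC trend removed and −0.13 with the length trend removed. In CDK16-sh2 (0.09) it was −0.11 under library totals and under RPKM, −0.028 without mitochondrial transcripts and 0.024 with the GC trend removed. At 1 μM (−0.21) it was −0.14 without mitochondrial transcripts and −0.041 with the GC trend removed. At 5 μM (−0.63) it was −1.32 under library totals, −1.17 without mitochondrial transcripts, −1.31 under RPKM, −0.84 with no filter and −0.15 with the GC trend removed. A 1.5-fold threshold gave 1 gene higher in CDK16-sh2, TUBA1A, and the share of all genes past 1.5-fold is not given here. The TUBA1A value in CDK16-sh2 was 0.79 with TMM scaling and 0.59 under library totals. It was 0.10 when the counts of TUBA1A, TUBA1B and TUBA1C were summed. Dose as a linear term gave 3 calls in place of 0. The widest share difference of 18.31 percentage points was 24.34 per gene length, where it was that of TUBB2A, and 18.49 with all other tubulin loci added. The causes were not tested beyond what each alternative changes by construction. A count of 367, the lowest of the 10 genes in any library, limited precision for TUBA4A at 5 μM.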

Other observations

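Other tubulin loci also differed between libraries. TUBD1, the delta tubulin gene, which is linked to centrioles, had 42 counts with the scramble shRNA, 101 with CDK16-sh1 and 125 with CDK16-sh2, with log2 fold changes of 0.96 (0.46 to 1.55) and 1.64 (1.17 to 2.22). In the Reb experiment it had 240 counts under DMSO, 229 at 1 μM and 11 at 5 μM, with −0.09 and −3.21. TUBE1, the epsilon tubulin gene, had 148, 153 and 212 counts in the knockdown experiment and 997, 1115 and 512 in the Reb experiment, with values between −0.23 and 0.62. TUBB4A had 292, 308 and 34 counts in the Reb experiment, with −1.96 at 5 μM. The pseudogene rows TUBAP2 and TUBBP1 had at most 159 and 111 counts in any library.

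TUBA3C, an alpha tubulin gene expressed mainly in testis, had 4573 counts under DMSO, 4886 at 1 μM and 621 at 5 μM (−1.77), but 0, 0 and 1 with the scramble shRNA, CDK16-sh1 and CDK16-sh2. Of 32654 symbols in both tables, 6 had at least 50 CPM under DMSO and at most 3 counts in each knockdown library, and 0 had the opposite pattern. The other five were VCX3A, VCX, PAGE5, PASD1 and MAGEA3, of which the VCX, PAGE and MAGEA genes belong to families known for expression in testis and in tumours. The threshold was chosen after the TUBA3C values were seen, and the tables were normalized separately. The source of the difference was not tested.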
